A study of Mus musculus with 18 samples.

Results

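Matrix metalloproteinases (MMPs), ADAMTS proteases and tissue inhibitors of metalloproteinases (TIMPs) were examined in the mouse colon, as every row of the deposited table whose symbol begins with Mmp or Adamts followed by a digit, or is Timp with a single digit. The rule took 46 of 27131 rows, of which 23 were MMP, 19 ADAMTS and 4 TIMP genes. The samples were colon tissue of untreated C57BL/6 mice, 9 libraries from mice labelled Hif2a +/+ (WT) and 9 from mice labelled Hif2a LFL (HIF2), an allele that the design text writes as LSL. HIF2 is the hypoxia-inducible transcription factor HIF-2α, encoded by Epas1, which per the labels is overexpressed in the colon of the HIF2 mice, and the series title places it in the epithelium. The labels used here name no promoter or Cre driver, age or sex, and do not say whether each library came from a separate mouse. The p-values therefore cover the spread among libraries, which may be technical.

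MMPs and ADAMTS proteases are zinc-dependent enzymes that cut the extracellular matrix. MMPs cut collagens, basement membrane and many secreted proteins, and most are made as inactive precursors, while several ADAMTS enzymes trim procollagen or cut proteoglycans such as versican and aggrecan. TIMPs bind the active site of these enzymes and block it. In the intestine most of these genes are expressed by fibroblasts, muscle and immune cells, several stromal MMPs are induced in inflamed or wounded tissue, and a few members are epithelial.

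Of the 46 genes, 22 had a mean of at least 1 FPKM (fragments per kilobase of transcript, scaled to the mapped fragments of the library) over the 18 libraries and were tested. Between the groups 12 of these rose in HIF2 and 0 fell (limma on log2(FPKM + 1), Benjamini-Hochberg adjusted p under 0.05), against 11.0% of all 13976 genes tested that were higher and 11.1% that were lower. None of the 22 was lower at an unadjusted p under 0.05 either, by limma or by an exact rank-sum test (0 and 0 genes). The median difference over the 22 was 1.11 on the log2 scale, and over all genes tested it was -0.02. By family, 5 of 11 MMP genes, 4 of 7 ADAMTS genes and 3 of 4 TIMP genes rose. By the exact rank-sum test 15 members rose, against 8.78% of all genes, the 3 added being Mmp10, Mmp13 and Adamts4, from which nothing is read because of how they passed the filter. The filter acts on the mean of both groups, so a gene could pass it through high values in 1 group or 1 library. Of the members that rose, Timp1, Mmp17, Mmp19, Adamts1, Adamts9, Adamts2 and Mmp23 averaged 0.313 to 0.638 FPKM in WT and passed it through HIF2. The counts and medians of tested members are therefore not read against all genes. With no filter 20 of 45 members rose and 0 fell, against 10.6% of all genes higher and 6.83% lower. A single library lifted Mmp3, Mmp10, Mmp13 and Adamts4, which did not pass the filter when HIF2 replicate 0 was left out. Without that library 11 of 18 members rose, against 10.9% of all genes, with a median of 0.90 (0 fell).

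**Figure D1:**
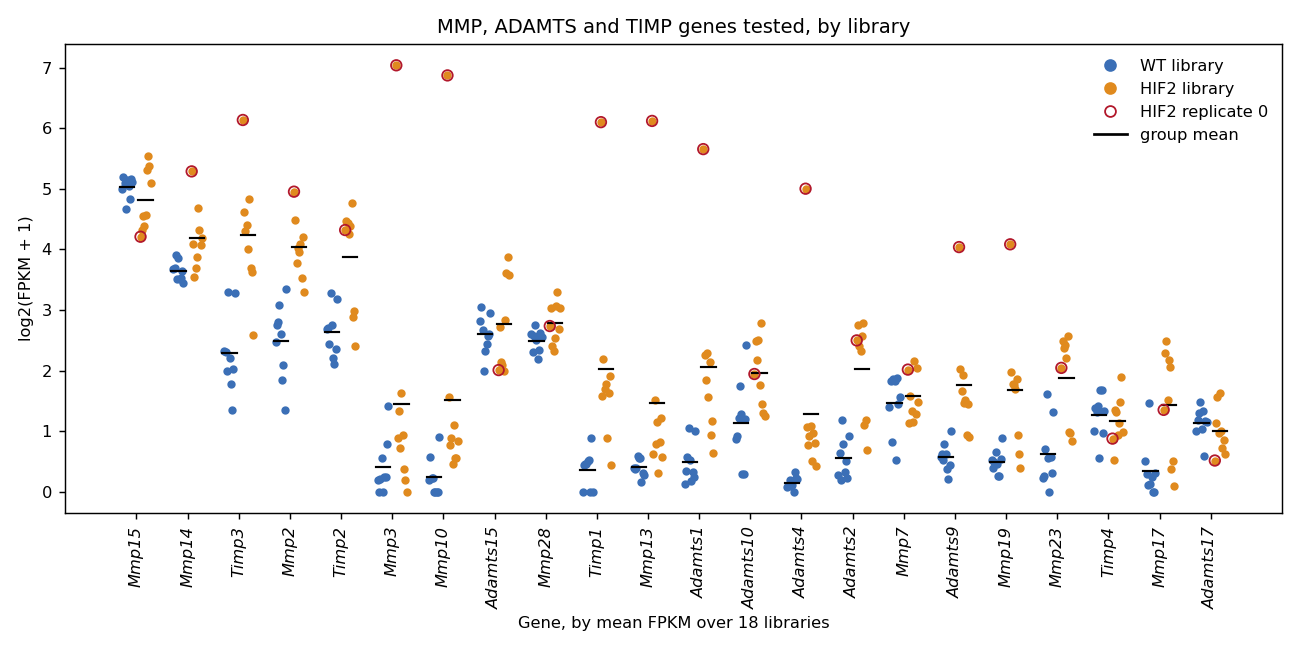
Level of each of the 22 genes tested in every library, as log2(FPKM + 1), with WT in blue, HIF2 in orange, the group mean as a black bar and HIF2 replicate 0 circled. HIF2 replicate 0 stands far above the other 17 libraries for Mmp3, Mmp10, Mmp13, Timp1, Adamts1 and Adamts4.

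Some facts of the libraries touch these results. Epas1 had a mean of 18.8 ± 3.09 FPKM (SD) over the 9 WT libraries and of 22.7 ± 6.36 over the 9 HIF2 libraries, with 5 HIF2 libraries inside the WT range, a difference of 0.24 on the log2 scale (SE 0.14, limma adjusted p = 0.246). The summed FPKM of 20 smooth muscle markers was between 2125 and 4552 in HIF2 replicates 0 to 5. It was between 131 and 282 in HIF2 replicates 6 to 8, and between 79.4 and 297 in WT apart from 1539 in WT replicate 3. Fibroblast markers (13 genes) summed to between 299.5 and 444 FPKM in HIF2 replicates 0 to 5, between 117 and 161 in replicates 6 to 8, and between 118 and 172 in WT. Epithelial markers, which check the tissue label, were high in every library, at 11183 to 22239 FPKM for 11 genes. In bulk tissue, more cells of a type and more RNA per cell cannot be told apart. The groups of libraries named here by replicate number are not groups of the study.

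Of the 4 TIMP genes, the inhibitors, Timp1, Timp2 and Timp3 rose. Timp3 (chromosome 10, 86300372 to 86349506), an inhibitor that binds to the matrix and also blocks ADAM and ADAMTS enzymes, ranged from 1.54 FPKM through a median of 3.61 to 8.86 in WT, and from 5.05 through 18.7 to 69.4 in HIF2. All but 1 of the HIF2 libraries, 8 of 9, lay above the highest WT library, and HIF2 replicate 8 lay inside the WT range. The difference was 1.96 on the log2 scale (SE 0.36, limma adjusted p = 0.000938), and 1.72 without HIF2 replicate 0. With a pseudocount of 0.1 it was 2.20, below the 3.13 of Timp1, so the order of members by size depends on the pseudocount. Timp3 shares 1733 exon bases with Syn3 on the opposite strand, and the library kit does not mark strand. The row of Syn3 was 1.29 FPKM in WT and 1.42 in HIF2 on average.

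Timp2 (chromosome 11, 118301069 to 118355740), which blocks MMP2 and at lower amounts takes part in its activation, was 3.32, 5.46 and 8.72 FPKM at the lowest, the median and the highest WT library. In HIF2 these values were 4.29, 19.0 and 26.2. HIF2 replicates 0 to 5 were above every WT library, at 18.2 FPKM or more, while replicates 6 to 8 lay at 4.29 to 6.96, within the WT range. The difference was 1.24 (SE 0.30, limma adjusted p = 0.00571). With the smooth muscle marker mean as a covariate it was 0.20 (adjusted p = 0.351).

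Timp1 (X chromosome, 20870166 to 20874735), an inducible inhibitor, was at most 0.860 FPKM in WT, with a median of 0.370 and 3 libraries at 0. In HIF2 it ranged from 0.352 through a median of 2.25 to 67.6 FPKM, and 7 of 9 libraries were above the WT maximum. HIF2 replicate 0 alone held 80.6% of the summed FPKM of the HIF2 libraries. The difference was 1.66 (SE 0.51, limma adjusted p = 0.0256), and without that library it was 1.15 (adjusted p = 0.0014). Timp4 ranged from 0.477 to 2.22 FPKM in WT and from 0.447 to 2.72 in HIF2. Its difference of -0.09 (SE 0.18, limma adjusted p = 0.772) was not larger than the spread between libraries.

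Of 5 tested collagenases, gelatinases, stromelysins and matrilysin 1 rose, gelatinase A, against 11.0% of all genes. Nothing is read from that share, since Mmp3, Mmp10 and Mmp13 were tested only through HIF2 replicate 0. Mmp2 (chromosome 8, 92827291 to 92853420), which cuts denatured collagen and basement membrane collagen, was 1.55, 5.09 and 9.13 FPKM at the lowest, the median and the highest WT library. In HIF2 these values were 8.81, 15.2 and 29.99, and 8 of 9 HIF2 libraries lay above the highest WT library. The difference was 1.55 (SE 0.25, limma adjusted p = 0.000345). Mmp2 passed in each of the 29 alternatives computed. With the smooth muscle marker mean as a covariate it was 1.09 (adjusted p = 0.0185). It was 1.27 when HIF2 replicates 0 to 5 and WT replicate 3, the libraries rich in muscle RNA, were left out (adjusted p = 0.0272).

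Of 3 tested membrane-type MMPs 2 rose, Mmp14 and Mmp17, against 11.0% of all genes. Nothing is read from that share, since Mmp17 averaged 0.334 FPKM in WT and passed the filter through HIF2. Mmp14 (chromosome 14, 54431612 to 54445364), the membrane-type enzyme that activates MMP2 at the cell surface, was 9.94, 11.5 and 14.04 FPKM across WT and 10.7, 15.9 and 38.1 across HIF2. Of the HIF2 libraries, 6 of 9 were above the WT maximum. The difference was 0.55 (SE 0.18, limma adjusted p = 0.0297), and between 0.41 and 0.63 with each library left out in turn. The adjusted p was above 0.05 without WT replicate 5 (0.53, adjusted p = 0.0514), WT replicate 8 (0.53, 0.0516) or HIF2 replicate 5 (0.49, 0.0561), with TPM scaling (0.52, 0.057) and with array weights (0.35, 0.0524). It was also above 0.05 with the replicate number as a block (0.55, 0.056) and with the smooth muscle covariate (0.64, 0.0781). The same held with HIF2 replicates 6 to 8 left out (0.55, 0.0677). Mmp17 (chromosome 5, 129584169 to 129611099), a membrane-type enzyme held by a lipid anchor, was 0, 0.180 and 1.77 FPKM across WT and 0.0732, 1.87 and 4.61 across HIF2. WT replicate 3 gave the highest WT value, and HIF2 replicates 6 to 8 were at most 0.430 FPKM. Mmp17 differed by 1.09 (SE 0.32, limma adjusted p = 0.0206), and by -0.013 once the muscle markers were in the fit.

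Mmp23 (chromosome 4, 155650655 to 155653384), a type II membrane protease, was 0, 0.470 and 2.05 FPKM at the lowest, median and highest WT library and 0.782, 3.61 and 4.97 in HIF2. HIF2 replicates 0 to 5 were above all WT libraries and replicates 6 to 8 were within the WT range. It differed by 1.26 (SE 0.29, limma adjusted p = 0.00425), and by 0.32 with the smooth muscle covariate (adjusted p = 0.263). Mmp19 (chromosome 10, 128790910 to 128800824), which cuts basement membrane proteins, was at most 0.861 FPKM in WT, and in HIF2 ranged from 0.313 through 2.40 to 16.0. The highest value was HIF2 replicate 0, and 7 of 9 HIF2 libraries exceeded the WT maximum. It differed by 1.19 (SE 0.35, limma adjusted p = 0.0188), and by 0.89 without HIF2 replicate 0 (adjusted p = 0.00807). Mmp19 shares 789 exon bases with Tmem198b on the opposite strand, a row that was also higher in HIF2, at 2.97 FPKM on average against 1.23 in WT (limma adjusted p = 0.0345).

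Among ADAMTS genes, those that cut large proteoglycans gave 2 of 4 tested as higher, Adamts1 and Adamts9, against 11.0% of all genes. Nothing is read from that share. Adamts1 and Adamts9 averaged 0.438 and 0.507 FPKM in WT and passed the filter through HIF2, and Adamts4 passed only through HIF2 replicate 0. Adamts1 (chromosome 16, 85793827 to 85803113) was 0.0920, 0.262 and 1.08 FPKM at the lowest, median and highest WT library and 0.565, 2.60 and 49.4 in HIF2. HIF2 replicate 0 was again the highest, and 7 of 9 HIF2 libraries were above the WT maximum. The difference was 1.57 (SE 0.47, limma adjusted p = 0.0219), and 1.12 without that library (adjusted p = 0.00284). Adamts9 (chromosome 6, 92772699 to 92943492) was 0.154, 0.486 and 0.997 FPKM across WT and 0.865, 1.85 and 15.4 across HIF2, a difference of 1.19 (SE 0.31, limma adjusted p = 0.0088), with 0.91 without HIF2 replicate 0.

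Adamts4 (chromosome 1, 171250421 to 171260637), an aggrecan- and versican-cutting enzyme, was at most 0.258 FPKM in WT, with a median of 0.0832, and ranged from 0.346 through 0.887 to 31.1 in HIF2. It was the only tested member in which every HIF2 library lay above every WT library, a pattern shown by 0.758% of all genes tested. Nothing is read from that share, since Adamts4 passed the filter only through HIF2 replicate 0. Limma gave a difference of 1.13 (SE 0.45, adjusted p = 0.0787), which did not pass. The exact rank-sum test gave an adjusted p of 0.00203, and with a pseudocount of 0.1 the difference was 2.64 (limma adjusted p = 0.00574). For the same reason nothing is read from these p-values.

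Adamts2 (chromosome 11, 50602084 to 50807573), which removes the amino-terminal propeptide of fibrillar procollagens, was 0.145, 0.422 and 1.29 FPKM across WT and 0.612, 4.28 and 5.93 across HIF2. HIF2 replicates 0 to 5 were at 3.99 FPKM or more, above all WT libraries, and replicates 6 to 8 were at 0.612 to 1.26, inside the WT range. The difference was 1.47 (SE 0.28, limma adjusted p = 0.00121). It was 0.53 with the smooth muscle covariate (adjusted p = 0.0361), so Adamts2 and Mmp2 were the 2 of the 12 risen members that still passed there. Adamts10, a gene linked to fibrillin microfibrils, ranged from 0.231 to 4.38 FPKM in WT and from 1.37 to 5.88 in HIF2, with 6 of 9 HIF2 libraries inside the WT range. Its difference was 0.82 (SE 0.28, limma adjusted p = 0.0402). The call was lost in 18 of 28 alternatives, while leaving out each library in turn kept the difference between 0.72 and 0.98. Without HIF2 replicate 0 it was 0.82 (adjusted p = 0.0515) and without WT replicate 5 it was 0.72 (adjusted p = 0.0784), whereas with the smooth muscle covariate it was 0.11 (adjusted p = 0.833).

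With the muscle covariate 3 of the 22 members rose and 0 fell, against 7.07% of all genes higher and 7.46% lower, and the third was Adamts15. With HIF2 replicates 6 to 8 left out, 11 members rose and 1 fell, against 12.5% and 13.4% of all genes, or 25.9% in either direction. Both of these tests hold members that passed the filter through HIF2, so their counts are not read against all genes. With HIF2 replicates 0 to 5 and WT replicate 3 left out, 11 members were tested and 5 rose, against 8.97% of all genes. The 5 were Mmp2, Mmp14, Mmp28, Timp3 and Adamts15, and only replicates 6 to 8 then stood for HIF2. Of the 12 members that rose in the main test 3 passed there, Mmp2, Mmp14 and Timp3. Timp2 (0.20, limma adjusted p = 0.544) and Adamts10 (0.27, adjusted p = 0.657) did not. The rest, Timp1, Adamts1, Adamts2, Adamts9, Mmp17, Mmp19 and Mmp23, fell below the filter and were not tested there. Timp3 differed by 1.15 there (limma adjusted p = 0.0361), and by 0.97 with the covariate (adjusted p = 0.0592). Of the 12 members that rose, 10 no longer passed with the covariate, and their differences moved unequally. That of Mmp14 was 0.64 (adjusted p = 0.0781) and that of Timp1 1.30 (adjusted p = 0.217), against 0.55 and 1.66 without it. Adamts1 was at 0.73, Adamts9 at 0.69 and Mmp19 at 0.45. The lowest were Mmp23, Timp2, Adamts10 (0.11) and Mmp17, as given above. Fibroblast markers were high in the same HIF2 libraries as the muscle markers, and so were endothelial and enteric neuron and glia markers. Endothelial markers summed to 46.7 to 142 FPKM in HIF2 replicates 0 to 5 and 23.8 to 28.6 in replicates 6 to 8. Enteric neuron and glia markers summed to 40.5 to 121 and 6.47 to 12.1. The part of these cells in the differences was not tested.

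**Figure D2:**
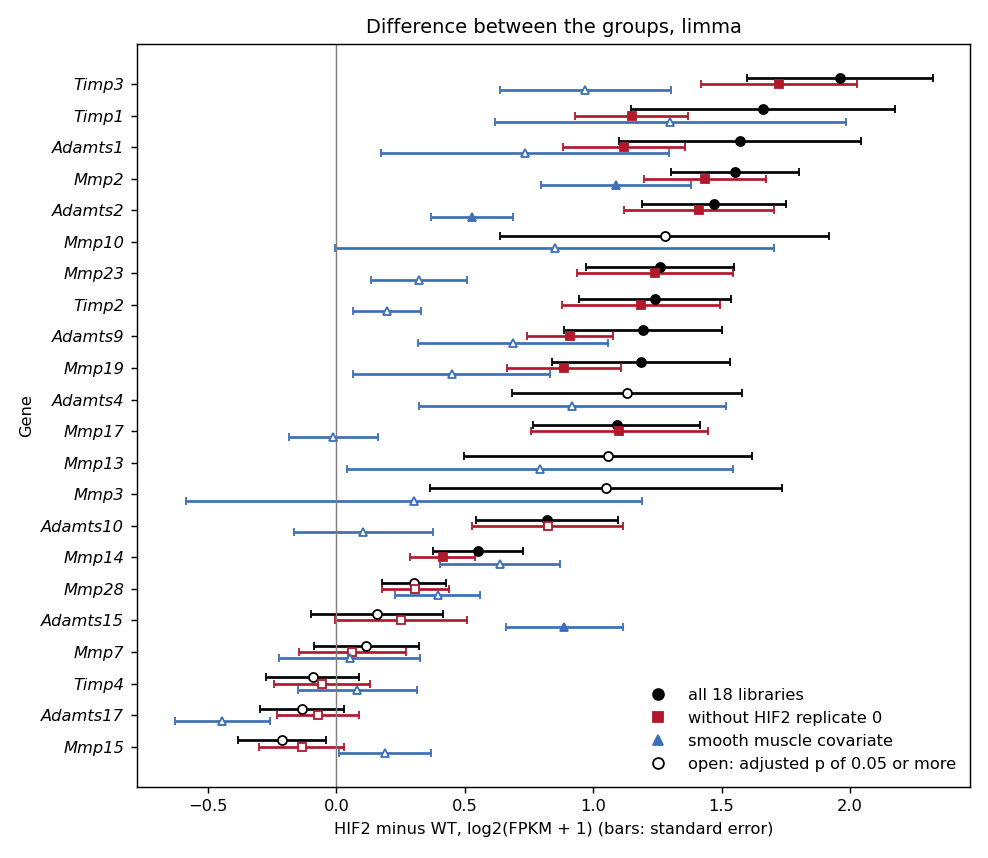
Difference between HIF2 and WT on the log2(FPKM + 1) scale for the 22 genes tested, with all 18 libraries (black), without HIF2 replicate 0 (red) and with the smooth muscle covariate (blue), where bars are standard errors and filled symbols have a limma adjusted p under 0.05. Mmp2 and Adamts2 are filled in all 3 series, and Mmp17 is at -0.013 with the covariate.

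Adamts15 had the opposite order among HIF2 libraries, and Mmp15 only in part. Adamts15, another versican-cutting enzyme, was between 3.002 and 6.11 FPKM in HIF2 replicates 0 to 5 and between 11 and 13.7 in replicates 6 to 8, while WT ranged from 3.002 to 7.29. Over all libraries it differed by 0.16 (SE 0.26, limma adjusted p = 0.725), by 1.01 with HIF2 replicates 0 to 5 and WT replicate 3 left out (adjusted p = 0.000604), and by -0.31 with HIF2 replicates 6 to 8 left out (adjusted p = 0.221). Mmp15, a membrane-type enzyme and the member with the highest mean level, was 24.4, 33.4 and 35.5 FPKM across WT and 17.5, 22.7 and 45.5 across HIF2. In HIF2 replicates 0 to 4 it lay below the lowest WT library, and 3 HIF2 libraries, replicates 5 to 7, lay above the highest. HIF2 replicate 8, at 33.1 FPKM, lay inside the WT range and below the 38.7 of replicate 5. Mmp15 differed by -0.21 (SE 0.17, limma adjusted p = 0.426), and fell by 0.47 with HIF2 replicates 6 to 8 left out (adjusted p = 0.0216).

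**Figure D3:**
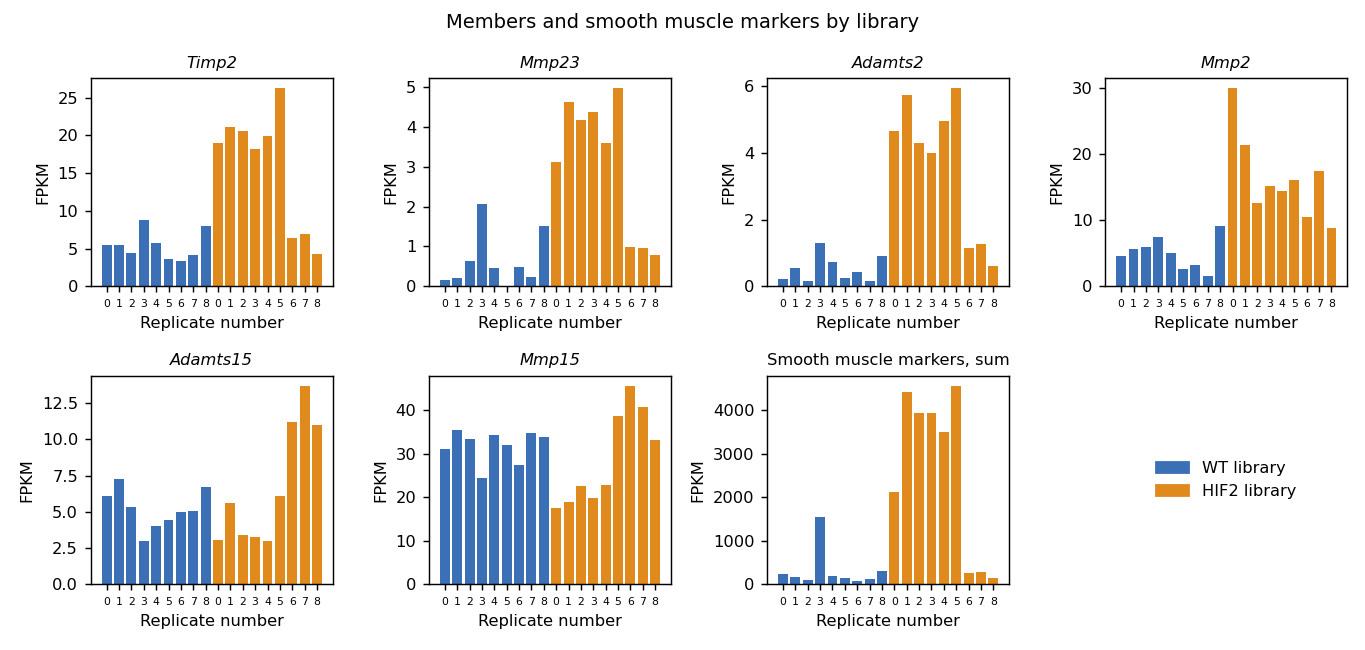
FPKM of 6 members and the summed FPKM of 20 smooth muscle markers in each library, WT in blue and HIF2 in orange, by replicate number. Timp2, Mmp23 and Adamts2 are high in HIF2 replicates 0 to 5 and within the WT range in replicates 6 to 8, as the muscle markers are, whereas Adamts15 is highest in HIF2 replicates 6 to 8.

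The other tested members did not pass. Mmp28, also called epilysin, averaged 4.67 ± 0.690 FPKM (SD, n = 9) across WT and 6.10 ± 1.63 (n = 9) across HIF2, a difference of 0.30 (SE 0.12, limma adjusted p = 0.094). It passed without HIF2 replicate 3, with an adjusted p of 0.0427. Mmp7, or matrilysin, an enzyme made by epithelium, averaged 1.88 ± 0.830 FPKM (SD, n = 9) across WT and 2.09 ± 0.886 (n = 9) across HIF2, a difference of 0.12 (SE 0.21, limma adjusted p = 0.745) whose sign turned with quantile normalization, at -0.066. Adamts17 averaged 1.23 ± 0.361 FPKM (SD, n = 9) across WT and 1.07 ± 0.590 (n = 9) across HIF2, a difference of -0.13 (SE 0.16, limma adjusted p = 0.618).

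HIF2 replicate 0 carried most of the RNA of the stromelysins and of collagenase-3. Mmp3, a stromelysin, reached 131 FPKM there, against highest values of 2.08 among HIF2 replicates 1 to 8 and 1.66 among WT. Mmp10, the second stromelysin, was 116 FPKM there, 0.367 to 1.97 in the other HIF2 libraries and at most 0.875 in WT. Mmp13, collagenase-3, was 68.6 FPKM there, 0.236 to 1.86 in the other HIF2 libraries and at most 0.511 in WT. That library held 95.3%, 94.5% and 90.5% of the summed HIF2 FPKM of Mmp3, Mmp10 and Mmp13. The differences between the groups were 1.05 (SE 0.69), 1.28 (SE 0.64) and 1.06 (SE 0.56), with limma adjusted p of 0.308, 0.172 and 0.198. By the exact rank-sum test Mmp10 and Mmp13 passed, with adjusted p of 0.0262 and 0.0204. Nothing is read from these passes, since both genes passed the filter only through HIF2 replicate 0. Of the 45 members above 0 in any library, HIF2 replicate 0 was the highest of the 18 libraries in 20, against 15.5% of all rows above 0. Among the 22 tested members it was the highest in 11, against 15.7% of all genes tested, and it held over 50% of the summed HIF2 FPKM in 8, against 0.966%. Nothing is read from the last 2 counts, since 4 of those members (Mmp3, Mmp10, Mmp13 and Adamts4) entered the test only through that library. The other 4 of the 8 were Timp1 at 80.6% of the sum, Adamts1 at 72.9%, Mmp19 at 52.4% and Adamts9 at 50.4%.

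The same library stood apart in markers of other cells. The summed FPKM of 12 neutrophil markers was 855 in HIF2 replicate 0, 3.22 to 12.2 in the other HIF2 libraries and 0.391 to 4.38 in WT. Of these, 4 were at 0 in all WT libraries, and Mpo and Elane, the azurophil granule enzymes, were at 0 in every library. S100a8 was 421 FPKM in HIF2 replicate 0 and at most 2.51 in any other HIF2 library. Endothelial markers (10 genes) summed to 142 FPKM there, against highest sums of 65.0 among HIF2 replicates 1 to 8 and 27.9 among WT, and the epithelial marker sum, 11183 FPKM, was the lowest of the 18 libraries. Macrophage markers (14 genes) summed to 151 FPKM there, within the range of the other HIF2 libraries. The part of neutrophils or other cells in the MMP values of that library was not tested.

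Of the 12 MMP genes that were highest in HIF2 replicate 0, 6 lie in 1 gene cluster, and the other 6 (Mmp2, Mmp9, Mmp11, Mmp14, Mmp19 and Mmp25) lie elsewhere. A stretch of chromosome 9 from 7272514 to 7699585 holds 10 members, in the order Mmp13, Mmp12, Mmp1b, Mmp3, Mmp1a, Mmp10, Mmp8, Mmp27, Mmp20 and Mmp7, and the 6 are Mmp13, Mmp12, Mmp1b, Mmp3, Mmp10 and Mmp8. Mmp8, the neutrophil collagenase, was 11.1 FPKM in HIF2 replicate 0, 0.105 in 1 other HIF2 library and listed at 0 in the remaining libraries. Mmp12, the macrophage elastase, reached 1.36 FPKM there, against highest values of 0.706 among HIF2 replicates 1 to 8 and 0.0863 among WT, and it shares 157 exon bases with Mmp1b on the opposite strand. Mmp1b was 0.292 FPKM in HIF2 replicate 0 and listed at 0 elsewhere. Mmp1a was listed at 0 in every library, Mmp27 was above 0 in 1 HIF2 library at 0.177 FPKM, and Mmp20, the enamel protease, was above 0 in 1 WT library at 0.0835 FPKM. Mmp7, at the end of the stretch, was 3.05 FPKM in HIF2 replicate 0, and highest in HIF2 replicate 5 at 3.46.

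**Figure D4:**
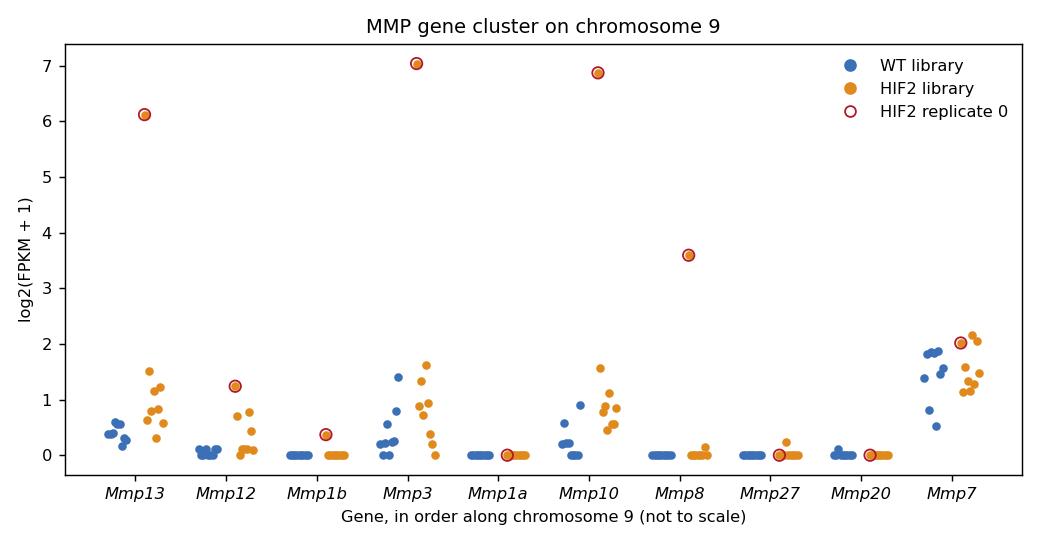
Level of the 10 MMP genes of the chromosome 9 cluster in every library, as log2(FPKM + 1), in their order along the chromosome, with HIF2 replicate 0 circled. Mmp13, Mmp3, Mmp10 and Mmp8 are high in that library and low elsewhere, whereas the ranges of Mmp7 overlap between the groups.

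The start regions of these genes are shown because the cluster members that rose in 1 library together can be compared with their neighbours. AP-1 is a transcription factor known to act on MMP promoters in inflamed tissue, and its site is TGAGTCA on 1 strand and TGACTCA on the other. RefSeq start regions (GRCm38.p6, 250 bases before to 50 after the start) were matched by symbol for 32 of the 46 members, in 35 entries, and the site was searched on both strands. It was found in 5.2% of all 32851 start regions and in 7 of the 35, each in a different gene of the cluster (Mmp1a, Mmp1b, Mmp3, Mmp7, Mmp10, Mmp12 and Mmp13). Counted from the start, the first base of the site lay at -46 in Mmp3, -63 in Mmp10, -35 in Mmp13 and -63 in Mmp7. The 120 bases before each start follow, with the AP-1 site in capitals, 5′ to 3′. Mmp7, which holds the site, and Mmp8, which does not, are shown beside the others, since Mmp8 was high in HIF2 replicate 0 alone and Mmp7, at 3.05 FPKM there, was as high in other HIF2 libraries.
Mmp3 (chr9:7445702-7445821, plus strand): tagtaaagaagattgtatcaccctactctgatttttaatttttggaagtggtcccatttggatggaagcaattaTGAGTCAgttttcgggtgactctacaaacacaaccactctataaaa
Mmp10 (chr9:7502222-7502341, plus strand): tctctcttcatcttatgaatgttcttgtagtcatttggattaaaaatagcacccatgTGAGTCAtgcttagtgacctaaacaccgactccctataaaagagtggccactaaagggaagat
Mmp13 (chr9:7272394-7272513, plus strand): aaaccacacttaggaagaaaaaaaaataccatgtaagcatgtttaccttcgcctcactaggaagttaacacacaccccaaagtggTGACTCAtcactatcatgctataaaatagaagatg
Mmp7 (chr9:7691970-7692089, plus strand): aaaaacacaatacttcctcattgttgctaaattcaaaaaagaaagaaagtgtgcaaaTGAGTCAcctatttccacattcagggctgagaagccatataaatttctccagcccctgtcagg
Mmp8 (chr9:7558309-7558428, plus strand): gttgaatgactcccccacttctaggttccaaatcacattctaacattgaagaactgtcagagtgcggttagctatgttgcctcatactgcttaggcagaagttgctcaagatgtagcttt
A match is a description of these letters and not a measured binding site.

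The core of the HIF site was searched in the same way, as ACGTG or GCGTG on either strand. Either core was found in 15 of the 35 member regions, or 42.9%, and in 43.8% of all regions. Of the members that rose, Timp1, Timp2, Timp3, Mmp14, Adamts1 and Adamts9 held at least 1 core, and Timp1 held ACGTG with its first base at -82 and GCGTG at -206. The 120 bases before the Timp1 start are shown with the nearer core in capitals, as an example of a member with the ACGTG form.
Timp1 (chrX:20870046-20870165, plus strand): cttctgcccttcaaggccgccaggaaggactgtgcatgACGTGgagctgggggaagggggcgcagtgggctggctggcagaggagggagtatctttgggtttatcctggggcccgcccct
The share in members was near that of all start regions.

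The remaining 24 members had a mean below 1 FPKM and were not tested in the main comparison. Without a filter on low values 9 of them were higher in HIF2 and 0 lower, against 10.6% and 6.83% of the 22774 genes then tested, and Adamts10 was the tested member whose call was lost (adjusted p = 0.0519). Adamts6 was at most 0.547 FPKM in WT and 0.468 to 1.88 in HIF2, with 8 of 9 HIF2 libraries above the WT maximum, a difference of 0.87 (limma adjusted p = 0.000219). Adamts5, the aggrecanase, was at most 0.268 FPKM in WT and ranged from 0.122 through 1.16 to 2.86 in HIF2, a difference of 0.89 (limma adjusted p = 0.00602). Adamts14, a procollagen protease like Adamts2, differed by 0.33 (limma adjusted p = 0.00562), and the third of that kind, Adamts3, by -0.06 (adjusted p = 0.816). Adamts19 was 0.0949 FPKM at the WT median and 1.80 at the HIF2 median. Adamts5, Adamts19, Adamts12, Adamts8, Adamts20 and Mmp16 were higher in each of HIF2 replicates 0 to 5 than in any of replicates 6 to 8, as the muscle markers were. Adamts5 was at least 1.11 FPKM in the former and 0.122 to 0.213 in the latter, within the WT range. Adamts6 kept that order only narrowly, at 1.23 FPKM in replicate 2 and 1.22 in replicate 7. Its replicates 6 and 7 lay above the WT maximum, unlike the muscle markers. Adamts7 completed the 9. Mmp9, gelatinase B, was at most 0.258 FPKM in WT and from 0 through 0.369 to 1.68 in HIF2, a difference of 0.47 that did not pass (limma adjusted p = 0.0508). Adamts13, the protease of von Willebrand factor, was at most 0.293 FPKM in any library. Mmp11, Mmp21, Mmp24, Mmp25, Adamts16 and Adamts18 did not pass and were at most 1.51 FPKM in any library.

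**Figure D5:**
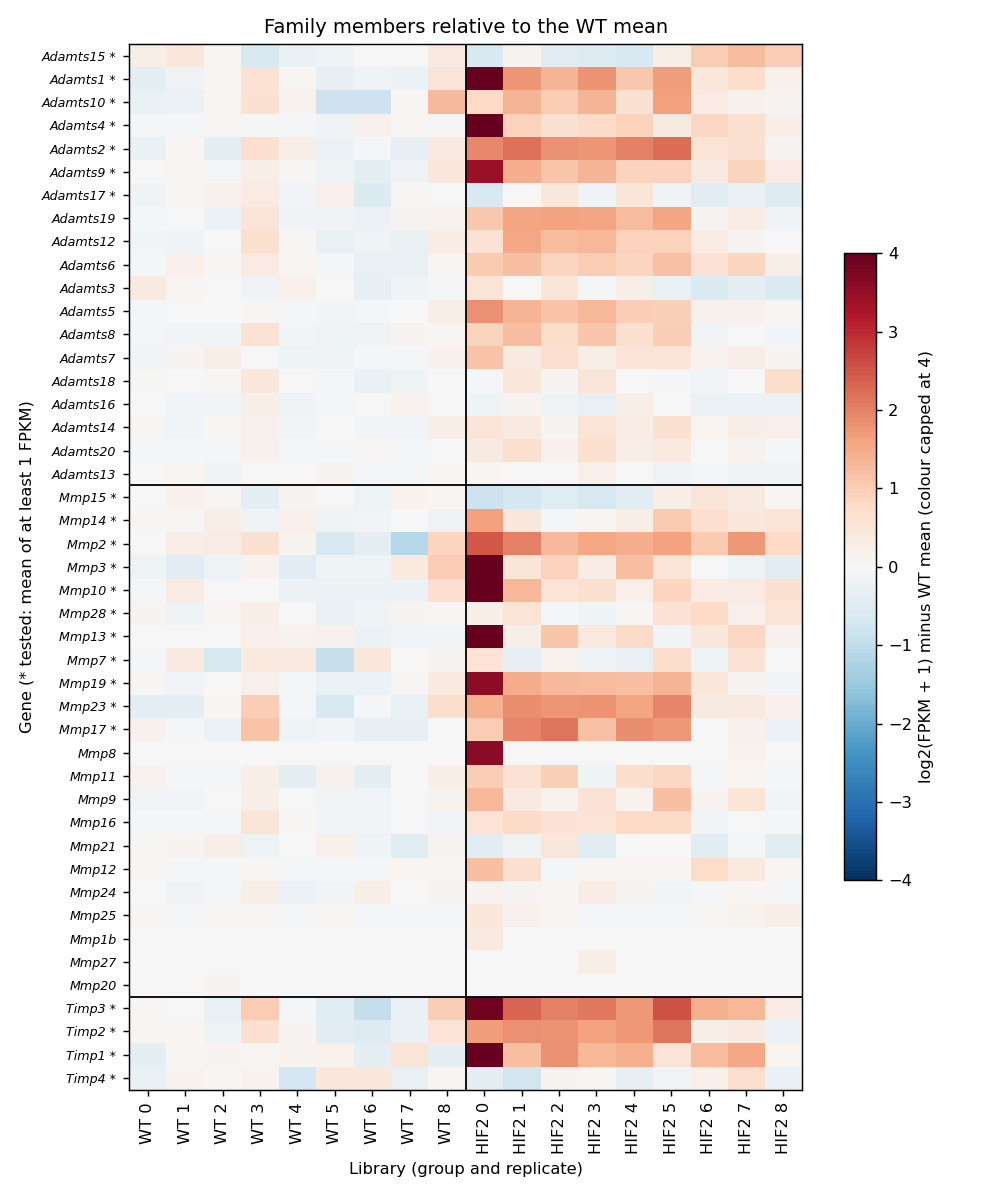
Each member above 0 in any library (rows, by family and mean level, with tested genes marked by an asterisk) in each of the 18 libraries (columns), as log2(FPKM + 1) minus the WT mean, with red for higher and blue for lower. HIF2 replicate 0 holds the darkest cells, and many ADAMTS rows are red in HIF2 replicates 0 to 5 and pale in replicates 6 to 8.

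As sums per family, TIMP RNA was 7.08 to 19.6 FPKM per WT library and 10.7 to 157 per HIF2 library, with medians of 10.3 and 42.1. ADAMTS RNA was 7.95 to 19.1 and 18.05 to 119, with medians of 11.5 and 29.99. MMP RNA was 49.4 to 66.6 and 65.3 to 448, with medians of 58.1 and 83.0. FPKM values are per length, so the levels of genes can be compared. In WT the order of the medians began with Mmp15 at 33.4 FPKM, Mmp14 at 11.5, Timp2 at 5.46, Mmp2 at 5.09, Adamts15 at 5.08, Mmp28 at 4.86 and Timp3 at 3.61, and the ranges of the last 5 overlapped. In HIF2 the order was Mmp15 at 22.7, Timp2 at 19.0, Timp3 at 18.7, Mmp14 at 15.9 and Mmp2 at 15.2, and the ranges of these 5 overlapped.

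Genes that activate or inhibit these enzymes, or are cut by them, were read from lists. Against 11.0% of all genes higher and 11.1% lower, 15 of 17 tested matrix substrates rose and 0 fell, with a median of 2.31. With the smooth muscle covariate 10 of 17 rose, with a median of 0.85, against 7.07% of all genes higher and 7.46% lower. The summed FPKM of the list of 20 was 969 to 1482 in HIF2 replicates 0 to 5, 178 to 325 in replicates 6 to 8 and at most 334 in WT. Examples are Nid1, a basement membrane protein, by 2.42 (SE 0.37, limma adjusted p = 0.000239), Fbn1, fibrillin, by 2.12, Col4a2, a basement membrane collagen, by 2.31, and Vcan, versican, by 1.61. Thbs1, a matricellular protein, did not pass, with a difference of 0.39 (SE 0.51, limma adjusted p = 0.648), and was highest in HIF2 replicate 0, at 207 FPKM. Of 10 tested activators and inducers 6 rose and 1 fell, and with the smooth muscle covariate 2 rose and 1 fell. The 6 included Plau, the urokinase plasminogen activator, by 1.83 (SE 0.38, limma adjusted p = 0.00214), Htra1, a matrix serine protease, by 1.34, and Ctsk, cathepsin K, by 1.30. The convertase gene Pcsk7 fell by 0.38 (SE 0.06). Bsg, a membrane glycoprotein also called EMMPRIN that induces MMPs, rose by 0.95 (SE 0.26, limma adjusted p = 0.0119), and was highest in HIF2 replicates 6 to 8, at 1651 to 1865 FPKM, against 477 to 1080 in replicates 0 to 5 and at most 593 in WT.

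For the lists that follow, 11.0% of all genes were higher and 11.1% lower. With the covariate these shares were 7.07% and 7.46%. Of 6 tested other inhibitors and clearance genes 4 rose and 0 fell, and with the covariate 2 rose and 1 fell. Reck, a membrane-anchored MMP inhibitor, rose by 1.01, Pcolce, a procollagen proteinase enhancer, by 1.17, and Serpine2, a protease nexin, by 1.89. Lrp1, the receptor that clears several MMPs and TIMPs, differed by -0.06 (adjusted p = 0.877). Of 8 tested ADAM proteases, relatives without the matrix-binding repeats of ADAMTS enzymes, 3 rose and 0 fell, and with the covariate 1 rose. The 3 were Adamdec1, a gene typical of intestinal stroma and macrophages, by 1.52 (SE 0.29, limma adjusted p = 0.00125), Adam19 by 0.90 and Adam23 by 1.01, while the main sheddases Adam10 and Adam17 differed by 0.09 and 0.04 (adjusted p = 0.665 and 0.775). Of 4 tested ADAMTS-like genes, which lack the protease domain, and papilin, 1 rose, Papln by 0.63 (adjusted p = 0.0252), which did not pass with the covariate, while Adamtsl4 differed by 0.51 (adjusted p = 0.157).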

How the data were processed

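Polyadenylated RNA came from fresh or frozen colon, and the 18 libraries were made with a TruSeq RNA v2 kit, per the labels' protocols. The deposited values were FPKM, made by the authors, 1 column per library, and all 18 columns were used. Listed in the submitters' processing notes, with no role or order, are Cufflinks, Cuffdiff 2.1.1, TopHat, TopHat2 2.0.9, Bowtie2 2.1.0.0, FastQC and the mm10 build. The strand setting and the annotation were not given in the sources used here. FPKM columns summed to between 686539 and 937505. Read depth is unknown, so no counting interval was computed.

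The analysis scale was log2(FPKM + 1), fitted with limma 3.58.1 in R 4.3.3 (trended prior, 2-sided, Benjamini-Hochberg over all 13976 genes with a mean of at least 1 FPKM), which understates the change of low genes. Groups were taken from the sample titles. The fit was tested on simulated data. The members, the lists, the alternatives and the rule for named genes (all TIMPs, called members with the 10 largest changes, the 5 highest members, 11 fixed MMP and ADAMTS genes and up to 4 genes per pathway list) were chosen with earlier results of these data known. Pathway genes shown beyond that were chosen after their values were seen. Marker lists for smooth muscle, fibroblast, macrophage, neutrophil, endothelial, epithelial, mesothelial, mast cell, enteric neuron and glia, lymphocyte, and Paneth, small intestine or pancreas cells were summed per library. The exact rank-sum test enumerated 48620 splits. Coordinates are 1-based from GENCODE M21 (GRCm38, the assembly of mm10), and start regions from RefSeq. Overlapping genes cannot be separated. Some genes of the pathway lists and some overlaps are counted but not reported here by name.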

Additional observations from a re-analysis of the deposited data

Results flagged for a closer look

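For each of the 22 tested members the highest and the lowest library of each group were compared with their group, 44 groups in all. In 9 of them the gap to the next library, as a share of the group's range on the log2(FPKM + 1) scale, was above Dixon's critical value for 9 libraries, where chance flags about 5% of groups. HIF2 replicate 0 was the library that stood apart in 8, as the highest HIF2 value. Its values were 49.4 FPKM for Adamts1, 31.1 for Adamts4, 15.4 for Adamts9, 116 for Mmp10, 68.6 for Mmp13, 16.0 for Mmp19, 131 for Mmp3 and 67.6 for Timp1. These 8 share 1 library, so they are not independent. In addition, 4 of them (Mmp3, Mmp10, Mmp13 and Adamts4) were tested only because that library lifted their mean over the filter, so the count of 9 is not read against chance. The other was Mmp17 in WT replicate 3, at 1.77 FPKM, where the smooth muscle markers were also the highest of WT.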

How the results depend on the processing

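The number of members higher in HIF2 was 12, and the number of all genes higher was 1531. With a filter at a mean of 5 FPKM these were 4 (of 9 tested) and 640, and with no filter 20 and 2407. With the smooth muscle covariate they were 3 and 988. With HIF2 replicates 0 to 5 and WT replicate 3 left out 5 of 11 members were higher, fewer being tested from fewer libraries. Of these 5, 3 were also higher in the main test. With HIF2 replicates 6 to 8 left out 1 member was lower. Leaving out each library in turn gave 10 to 12 members higher and 0 lower, and over all genes 1282 to 1661 higher and 1336 to 1657 lower. Differences turned sign for 6 members, 5 of them never called in the main test. Adamts15 was at -0.065 with array weights and -0.31 with HIF2 replicates 6 to 8 left out, where Adamts17 was at 0.00012. Mmp15 was at 0.19 and Timp4 at 0.082 with the smooth muscle covariate, and at 0.26 and 0.21 with HIF2 replicates 0 to 5 and WT replicate 3 left out. Mmp7 was at -0.066 with quantile normalization, and leaving out each library gave -0.00013 (without WT replicate 5) to 0.17. The called gene that turned was Mmp17, at -0.013 with the covariate. The cause was not tested. With the replicate number as a replicate block 10 members were higher, Adamts10 and Mmp14 no longer passing (adjusted p = 0.0851 and 0.056). Same-numbered libraries had correlations of deviations between -0.03 and 0.11, and 0 of 9 matched their own number best. What the number marks is not given, and such correlations cannot decide whether same-numbered libraries share an animal, litter or day. Absolute depth is unknown, and members below 1 FPKM may rest on few fragments.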

Other observations

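The marker lists not described in full above gave the following summed FPKM per library. Of all genes tested, 11.0% were higher and 11.1% lower, which stand beside the counts of markers. Mesothelial markers (6 genes) summed to 1.18 to 3.03 in WT and 5.06 to 15.8 in HIF2, and 2 of 3 tested were higher (limma adjusted p under 0.05). Enteric neuron and glia markers (10 genes) summed to 3.05 to 10.6 in WT. In HIF2 they summed to 40.5 to 121 in replicates 0 to 5 and 6.47 to 12.1 in replicates 6 to 8. The highest value was in HIF2 replicate 0, and 4 of 4 tested were higher. Mast cell markers (8 genes) summed to 18.4 to 23.0 in WT and 16.3 to 37.5 in HIF2, with 2 of 4 tested higher and 1 lower, Kit, which interstitial cells of the gut also express. Lymphocyte markers (9 genes) summed to 106 to 164 in WT and 98.3 to 181 in HIF2. Paneth, small intestine or pancreas genes (10 genes) summed to 37.5 to 602 in WT and 13.9 to 74.1 in HIF2, with 3 of 8 tested lower.
Of the lists given earlier by their sums, 17 of 19 tested smooth muscle markers, 9 of 12 fibroblast markers and 10 of 10 endothelial markers were higher. The shares of all genes were again 11.0% higher and 11.1% lower. Of 13 tested macrophage markers 9 were higher and 1 lower, counting Adgre1 by its older symbol Emr1 (8 and 1 of 12 without it), and of 11 epithelial markers 4 were lower.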
